A study of Homo sapiens with 6 samples.

Results

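MYC and 45 genes that build ribosomes were followed in A549 cells, a cell line that was established from a lung adenocarcinoma. The 46 genes were taken by symbol from a table of 23827 genes, and all 46 were found, counted and tested. A group of 3 cultures received 20 mM lactic acid in the medium for 24 h, and the other group of 3 received phosphate-buffered saline (PBS) in equal volume for the same time. Polyadenylated RNA was sequenced from each, and the labels call the 3 libraries of a group biological replicates without saying how the cultures were kept apart, so p-values measure the spread between these libraries. Lactic acid supplies lactate and acid together; lactate salts and acid alone were not analysed here, and the line is a single tumour line.

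Ribosomes are assembled in the nucleolus. RNA polymerase I transcribes a long precursor RNA from the ribosomal DNA, small nucleolar ribonucleoproteins (snoRNPs) guide its chemical modification, and many assembly factors fold and cut it into the small and the large subunit. MYC is a transcription factor, active as a dimer with MAX, that is well known for driving these genes in growing cells, including tumour cells.

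The 6 libraries held 33492831 to 42938870 counts in genes, and the members held 368 to 48552 counts per library. LYAR had the fewest counts, and the SE of its log2 fold change, 0.104, was the largest among the members. The line's keratins KRT8 and KRT18 and its abundant enzymes ALDH1A1, AKR1B10 and NQO1 were high in every library, but 7 of 8 markers of the line changed with treatment. ALDH1A1 fell from 5113 ± 95 to 4091 ± 33.9 CPM, KRT18 from 1054 ± 46.2 to 916 ± 14.4 CPM and the low EPCAM from 3.29 ± 0.501 to 1.62 ± 0.434 CPM. AKR1C1 rose 1.81-fold, NQO1 1.32-fold, AKR1B10 1.23-fold and KRT19 1.14-fold, while KRT8 was not called, and the part of these shifts in the results was not tested. CDKN2A, which is deleted in A549, reached at most 3 counts, the leukocyte marker PTPRC at most 2 and the B cell marker CD79A at most 22. Normalization factors lay between 0.988 and 1.02. Levels are given as counts per 1000000 (CPM) after that normalization, or, for comparisons between genes, as fragments per kilobase of transcript per 1000000 fragments (FPKM) from the authors' table.

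Most of the members were lower after lactic acid, by small amounts. At an adjusted p under 0.05 in edgeR's quasi-likelihood test, 30 of 46 fell, 1 rose and 15 were not called, so that 31 were called in either direction, against 35.4% of all genes tested. The 30 are 65.2% of the members, against 16.7% of all 15474 genes tested that fell, and the 1 that rose is 2.17%, against 18.7%. The falls ran from 7.80% to 22.8% with a median of 14.4%, and 4 members fell by at least 20%. The median log2 fold change was −0.17 over the members and 0.0024 over all genes tested, and 38 of 46 members had a value below 0, against 49.6% of all genes. Among the 7936 genes that average 20 CPM or more, a level that 43 of the members reach in PBS, 22.3% fell and 26.3% rose.

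Library by library, the lactic acid values lay below all PBS values for 32 members and above them for 1, so the groups overlapped for 13. Of all genes tested, 23.1% lay below without overlap and 24.4% above. Summed over the members, the PBS libraries held 5681, 5644 and 5714 CPM and the lactic acid libraries 5275, 5164 and 5212 CPM. Every lactic acid library was thus lower than every PBS library in the sum as well. In bulk RNA, fewer cells with a high level and less RNA in each cell cannot be told apart.

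**Figure D1:**
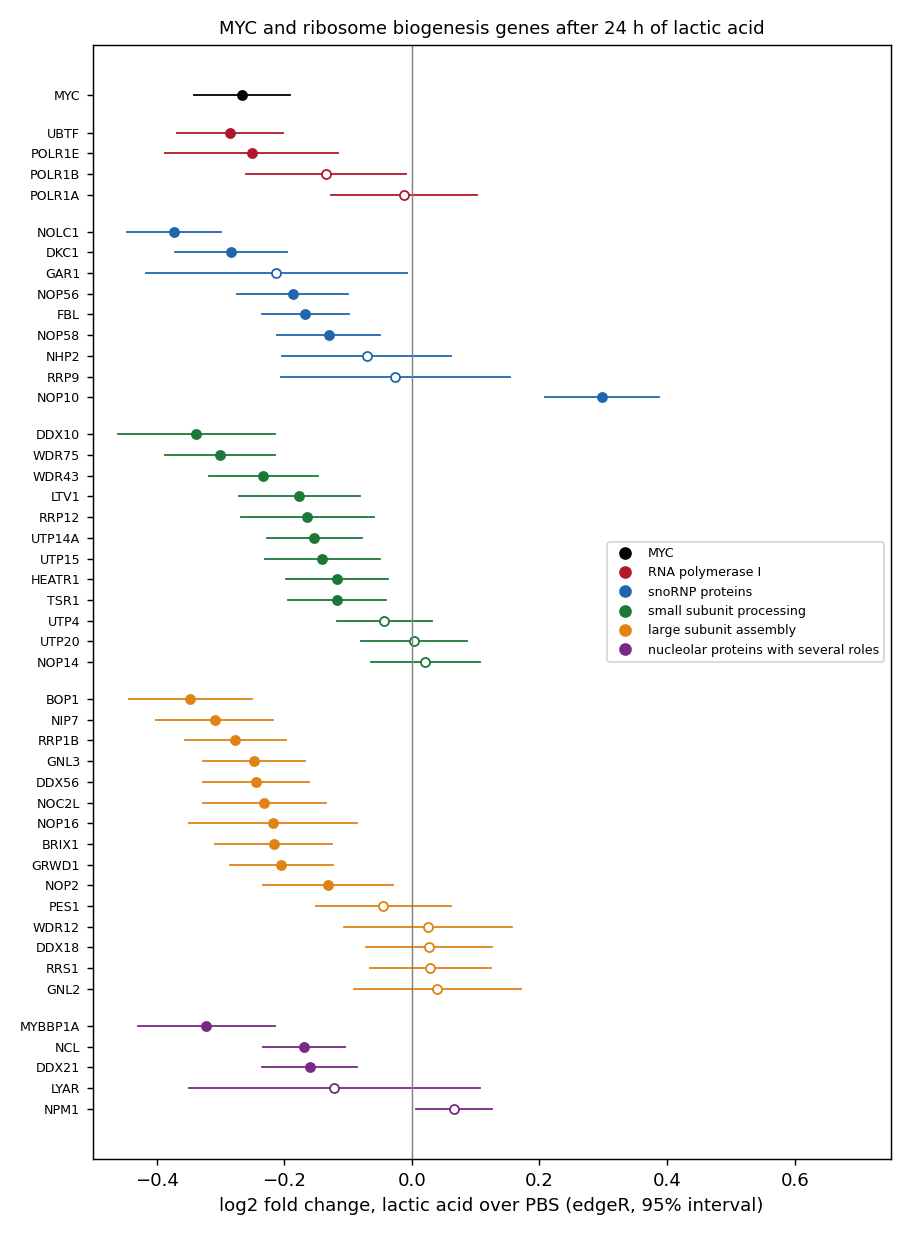
Each point is the log2 fold change of 1 gene, lactic acid over PBS, with its 95% interval from edgeR (3 libraries per group); filled points passed an adjusted p of 0.05 and colours give the role. 38 of 46 points lie left of 0, and NOP10 is the only filled point to the right.

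**Figure D2:**
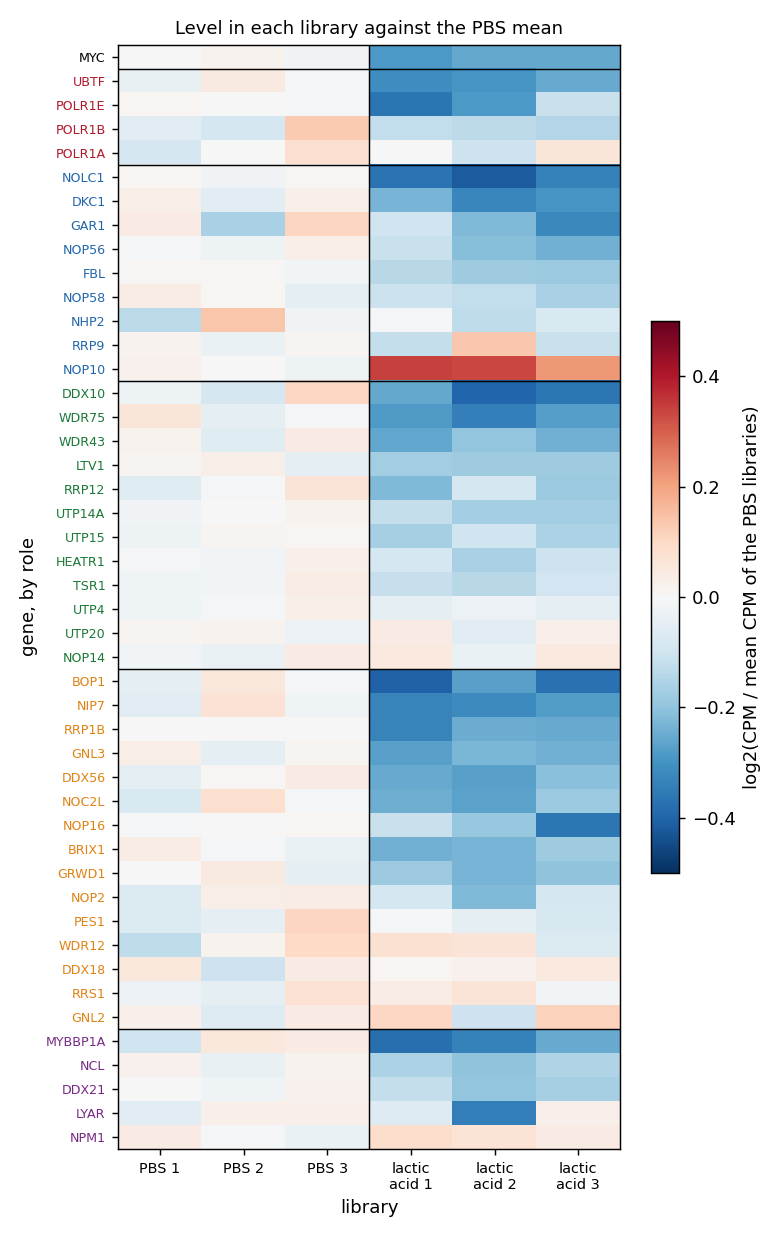
Colour gives log2 of the CPM of each gene in each library over the mean of its PBS libraries, on a scale from −0.5 to 0.5, with rows grouped by role. The 3 lactic acid columns are blue for most rows, and NOP10 is red in all 3.

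MYC itself fell by 16.9%. In GRCh38 it spans positions 127735434 to 127741434 of chromosome 8, plus strand. It stood at 153, 154 and 151 CPM with PBS and at 125, 128 and 128 CPM with lactic acid. The groups were far apart against their spread, at 153 ± 1.74 to 127 ± 1.65 CPM (log2 fold change −0.27 with SE 0.034, adjusted p = 0.000104). Its level per length was 64.4 ± 1.74 FPKM in PBS. The fall stayed past the threshold under each of the 15 other settings, with log2 fold changes between −0.31 and −0.26.

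Of the repressors that compete with MYC for MAX, MXD1, MNT, MXI1, MXD4 and MGA rose, and MXD3 was not called, with a lower mean after lactic acid. MAX, which every MYC dimer needs, stood at 43.5, 40.9 and 41.6 CPM with PBS and at 44.1, 43.9 and 47.9 CPM with lactic acid and was not called (log2 fold change 0.11, adjusted p = 0.0885). The MXD proteins, MXI1 and MNT also pair with MAX and repress where MYC activates. MXD1 rose 1.81-fold, standing at 5.25, 5.94 and 6.38 CPM with PBS and at 11.9, 9.95 and 10.1 CPM with lactic acid (log2 fold change 0.86 with SE 0.113, adjusted p = 0.000125). Its lactic acid values all exceeded its PBS values. MNT rose 1.26-fold from 24.7 ± 0.689 to 31.0 ± 0.234 CPM (log2 fold change 0.33, adjusted p = 0.000248), and MXI1 rose 1.29-fold from 17.8 ± 1.16 to 23.0 ± 1.38 CPM (log2 fold change 0.37, adjusted p = 0.00225). MXD4 rose 1.11-fold (log2 fold change 0.15, adjusted p = 0.0122), a call that was lost without the first PBS library (0.0553) or the second lactic acid library (0.0541). MGA, a large MAX partner of repressive complexes, rose 1.15-fold (log2 fold change 0.20, adjusted p = 0.00176; 0.151 on log2(FPKM + 1)).

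MXD3, another MAX-binding repressor, was not called. It stood at 15.9, 21.2 and 18.9 CPM with PBS and at 11.7, 18.9 and 14 CPM with lactic acid (log2 fold change −0.33, adjusted p = 0.124). The second lactic acid library lay within the range of the PBS libraries and the others below it. Without that library MXD3 passed as a fall (log2 fold change −0.54, adjusted p = 0.0124).

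Cofactors and regulators of MYC protein were mixed. WDR5, which helps MYC bind chromatin, fell (80.7 ± 1.82 to 65.9 ± 0.35 CPM; log2 fold change −0.29, adjusted p = 5.21e-05), as did CIP2A, which shields MYC protein from dephosphorylation (log2 fold change −0.48, adjusted p = 1.24e-05), and the kinase PIM1 (log2 fold change −0.23, adjusted p = 0.00582). USP28, which removes ubiquitin from MYC, fell (log2 fold change −0.14, adjusted p = 0.0271), but not without the second PBS, the third PBS or the second lactic acid library (0.058 to 0.103), in DESeq2 (0.0593) or on FPKM (0.0733 to 0.130). The ubiquitin ligase subunit FBXW7 (log2 fold change 0.19), the cofactor TRRAP (−0.056), ZBTB17 (0.13), MLX (0.058) and MYCL (0.039) were not called. MYCN was not tested, at 0 to 4 counts per library. In all, 5 of 16 tested genes of this list rose (31.2%) and 4 fell (25%). Of all genes tested 18.7% rose and 16.7% fell, and of those averaging 20 CPM or more 26.3% rose and 22.3% fell. Both shares of the list are near the latter, though some of its genes, such as MXD1 and MXD3, lie below that level.

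**Figure D3:**
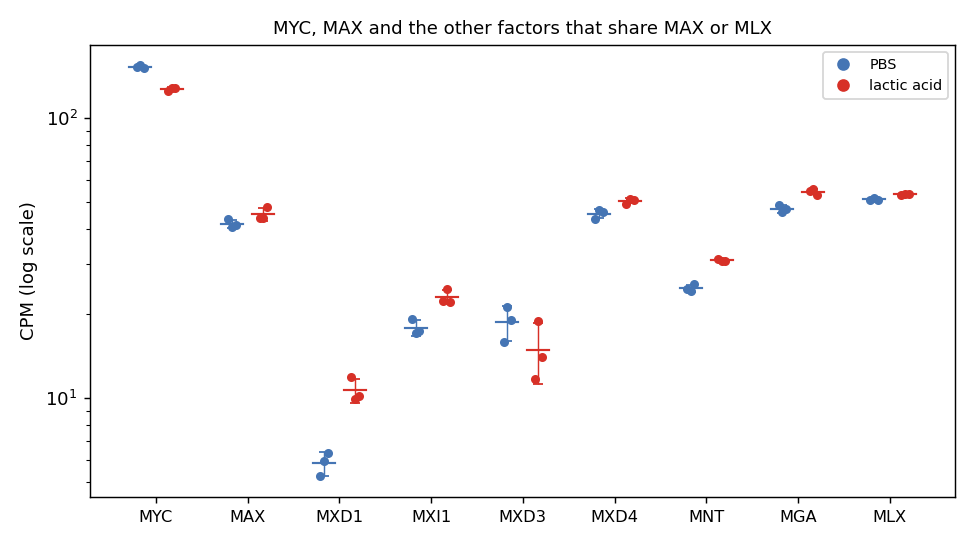
CPM on a log axis for MYC, MAX and genes of the same dimer network; points are the 3 libraries of a group, the horizontal bar is their mean and the whiskers are 1 SD. MYC is lower and MXD1, MXI1, MXD4, MNT and MGA are higher in all lactic acid libraries, while MXD3 overlaps.

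RNA polymerase I was represented by its largest subunits POLR1A and POLR1B, by POLR1E, and by UBTF, the factor that opens the ribosomal DNA for it. UBTF and POLR1E fell and both large subunits were not called, so 2 of 4 fell, against 16.7% of all genes tested. UBTF stood at 134, 142 and 137 CPM with PBS and at 111, 112 and 116 CPM with lactic acid. This is a fall of 17.9% with no overlap (log2 fold change −0.29 with SE 0.038, adjusted p = 0.000139). POLR1E went from 33.0 ± 0.21 to 27.7 ± 2.54 CPM (log2 fold change −0.25 with SE 0.0617, adjusted p = 0.00794), with its lactic acid libraries spread between 25.6 and 30.5 CPM. POLR1A stood at 102, 107 and 114 CPM with PBS and at 108, 100.1 and 112 CPM with lactic acid. Its values were mixed between the groups (log2 fold change −0.012, adjusted p = 0.883, 95% interval −0.13 to 0.10). POLR1B was lower in every lactic acid library without passing the test (35.5 ± 2.92 to 32.4 ± 0.276 CPM; log2 fold change −0.13, adjusted p = 0.0911), its PBS libraries running from 33.4 to 38.8 CPM.

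Of the 9 snoRNP proteins, 5 fell (55.6%, against 16.7% of all genes tested) and 1 rose (11.1%, against 18.7%). The box C/D snoRNPs methylate ribosomal RNA, and their core proteins FBL, NOP56 and NOP58 all fell. FBL, the methyltransferase fibrillarin, stood at 282, 282 and 278 CPM with PBS and at 255, 248 and 247 CPM with lactic acid, a fall of 10.9% (log2 fold change −0.17 with SE 0.0311, adjusted p = 0.00143). NOP56 went from 276 ± 5.96 to 242 ± 11.7 CPM (log2 fold change −0.19, adjusted p = 0.00324) and NOP58 from 81.6 ± 2.40 to 74.6 ± 1.46 CPM (log2 fold change −0.13, adjusted p = 0.0168; 0.0541 without the third lactic acid library). RRP9, which is specific to the snoRNP that folds the small subunit precursor, was not called at 17.8 ± 0.344 to 17.5 ± 1.81 CPM (log2 fold change −0.026, adjusted p = 0.841).

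In the box H/ACA snoRNPs, which turn uridine into pseudouridine, the 4 core proteins differed. DKC1, the pseudouridine synthase dyskerin, stood at 139.6, 132 and 139 CPM with PBS and at 117, 109 and 112 CPM with lactic acid and fell by 17.8% (log2 fold change −0.28 with SE 0.0402, adjusted p = 0.000223). NOP10, a small protein bound to dyskerin, stood at 58.3, 57.5 and 56.4 CPM with PBS and at 72.7, 72.3 and 66.7 CPM with lactic acid. It rose 1.23-fold, the 1 member called higher, with no overlap (log2 fold change 0.30 with SE 0.0407, adjusted p = 0.000164). GAR1 (15.7 ± 1.5 to 13.6 ± 1.06 CPM; log2 fold change −0.21, adjusted p = 0.0992) and NHP2 (80.7 ± 7.68 to 76.8 ± 3.19 CPM; log2 fold change −0.071, adjusted p = 0.397) were not called. GAR1 did pass without the second PBS library (log2 fold change −0.29, adjusted p = 0.031).

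The ratio of NOP10 to DKC1 in FPKM was 1.98, 2.08 and 1.90 with PBS, and with lactic acid it was 2.97, 3.12 and 2.82. The groups did not overlap, at an exact two-sided permutation p of 0.1, the smallest that 3 against 3 libraries allow. In contrast, the ratio of NOP58 to FBL was 0.168, 0.163 and 0.161 in PBS and 0.166, 0.169 and 0.164 after lactic acid, which overlapped. These ratios were chosen after the values were seen, as part of 12 within 3 complexes. With 0.1 as the smallest p, none of the 12 could pass at 0.05 (adjusted p of at least 0.24). The separation of the NOP10 to DKC1 ratio restates the rise of NOP10 and the fall of DKC1.

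NOLC1, the nucleolar phosphoprotein that chaperones snoRNPs, had the largest fall of the members called. It stood at 255, 250.2 and 254 CPM with PBS and at 196, 189.8 and 200.03 CPM with lactic acid, a fall of 22.8% (log2 fold change −0.37 with SE 0.0336, adjusted p = 6.89e-06). The gap between the groups was several times the spread within either.

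Small subunit processing fell in 9 of 12 genes (75%, against 16.7% of all genes tested) and rose in 0 (against 18.7%). The median log2 fold change was −0.15. These proteins form the processome that binds the precursor as it is transcribed, and later the exported small subunit. DDX10, a helicase of the processome, stood at 43.4, 41.6 and 47.5 CPM with PBS and at 37.0, 33.6 and 34.4 CPM with lactic acid, a fall of 20.9% (log2 fold change −0.34 with SE 0.0563, adjusted p = 0.000689). WDR75, of the subcomplex that also supports transcription by RNA polymerase I, stood at 66.8, 61.9 and 63.7 CPM with PBS and at 52.7, 50.6 and 53 CPM with lactic acid, a fall of 18.8% (log2 fold change −0.30 with SE 0.0392, adjusted p = 0.000121). Both were lower in every lactic acid library than in any PBS library, and WDR75 lost its call only on log2(FPKM + 1) without a filter (0.0695).

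WDR43, of the same subcomplex, fell from 91.8 ± 3.39 to 78.1 ± 1.75 CPM (log2 fold change −0.23, adjusted p = 0.00069). UTP15, HEATR1 and UTP4 belong to it too. UTP15 went from 38.4 ± 0.556 to 34.8 ± 0.849 CPM (log2 fold change −0.14, adjusted p = 0.0204) and HEATR1, the largest of them, from 111 ± 1.64 to 102 ± 2.70 CPM (log2 fold change −0.12, adjusted p = 0.0257). UTP4 was lower in every lactic acid library but not called (87.5 ± 1.62 to 84.9 ± 0.629 CPM; log2 fold change −0.043, adjusted p = 0.354). The remaining falls were those of UTP14A, a processome protein (62.0 ± 0.751 to 55.8 ± 1.15 CPM; log2 fold change −0.15, adjusted p = 0.00433), and RRP12, known in yeast as an export factor (50.1 ± 2.21 to 44.7 ± 2.19 CPM; log2 fold change −0.16, adjusted p = 0.019). LTV1 (34.6 ± 0.921 to 30.6 ± 0.0904 CPM; log2 fold change −0.18, adjusted p = 0.00792) and TSR1 (156 ± 3.55 to 144 ± 2.01 CPM; log2 fold change −0.12, adjusted p = 0.0224), which ride on the late small subunit, fell too. UTP20, a large scaffold protein, was not called at 78.9 ± 1.38 to 79.1 ± 2.91 CPM (95% interval −0.08 to 0.087 on the log2 scale), nor was NOP14, another processome protein, at 54.5 ± 1.47 to 55.4 ± 1.83 CPM (95% interval −0.065 to 0.11).

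Several of these calls lie near the threshold. The 9 falls became 5 without the third PBS library, where HEATR1, UTP15, RRP12 and TSR1 had adjusted p-values of 0.0782, 0.0541, 0.0784 and 0.0809. HEATR1 was also lost without the second lactic acid library (0.0915). TSR1 was lost without lactic acid library 1 (0.0592) or 2 (0.0698), RRP12 without lactic acid library 1 (0.0757) or 3 (0.0577), and UTP15 without lactic acid library 1 (0.0752) or 3 (0.0558) or PBS library 2 (0.0728). UTP15 was also lost in DESeq2 (0.081) and on log2(FPKM + 1) (0.0971), and RRP12 on log2(FPKM + 1) with no filter (0.0769).

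Large subunit assembly fell in 10 of 15 genes (66.7%, against 16.7% of all genes tested) and rose in 0 (against 18.7%). The median log2 fold change was −0.22. BOP1, PES1 and WDR12 form a complex needed to cut the precursor of the large subunit RNAs. BOP1 stood at 80.1, 86.2 and 82.4 CPM with PBS and at 62.6, 68.7 and 64.0 CPM with lactic acid, a fall of 21.4% (log2 fold change −0.35 with SE 0.0442, adjusted p = 0.000102). PES1 stood at 72.1, 73.2 and 81.6 CPM with PBS and at 75.4, 73.2 and 71.5 CPM with lactic acid and was not called (log2 fold change −0.045, adjusted p = 0.512, 95% interval −0.15 to 0.061). WDR12 stood at 36.8, 40.7 and 43.0 CPM with PBS and at 42.3, 42.0 and 38.3 CPM with lactic acid and was not called either (log2 fold change 0.025, adjusted p = 0.781, 95% interval −0.11 to 0.16). For both of these the groups overlapped, while for BOP1 they did not. The ratio of BOP1 to PES1 in FPKM was 1.10, 1.15 and 0.996 in PBS and 0.823, 0.930 and 0.884 after lactic acid. It is another of the 12 ratios chosen after the values were seen, none of which could pass. Its separation restates the fall of BOP1 beside PES1, which was not called.

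NIP7, which acts in precursor cutting, stood at 53.8, 58.8 and 55.0 CPM with PBS and at 44.4, 44.8 and 46.1 CPM with lactic acid, a fall of 19.3% (log2 fold change −0.31 with SE 0.042, adjusted p = 0.000162). RRP1B, a nucleolar scaffold that recruits a phosphatase, stood at 89.6, 89.6 and 89.6 CPM with PBS and at 71.2, 75.4 and 75.3 CPM with lactic acid, a fall of 17.5% (log2 fold change −0.28 with SE 0.0361, adjusted p = 0.000121). Its 3 PBS libraries were nearly alike, with an SD of 0.0503 CPM, and all lactic acid libraries were lower. Falls were also found for GNL3, the GTPase nucleostemin (90.3 ± 2.65 to 76.1 ± 1.18 CPM; log2 fold change −0.25, adjusted p = 0.000286), and the helicase DDX56 (100.3 ± 3.25 to 84.7 ± 1.86 CPM; log2 fold change −0.24, adjusted p = 0.000417). NOC2L (71.7 ± 3.84 to 61.1 ± 1.79 CPM; log2 fold change −0.23, adjusted p = 0.00164) and NOP16 (35.0 ± 0.203 to 30.1 ± 2.64 CPM; log2 fold change −0.22, adjusted p = 0.015) fell, as did BRIX1, an assembly factor (40.9 ± 1.05 to 35.2 ± 0.856 CPM; log2 fold change −0.22, adjusted p = 0.00183), and GRWD1, a histone-binding WD protein (78.7 ± 2.5 to 68.3 ± 1.3 CPM; log2 fold change −0.20, adjusted p = 0.00118). These 4 falls were of 13.2% to 14.8%.

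NOP2, which methylates the large subunit RNA, was the weakest call (85.3 ± 3.56 to 77.9 ± 4.01 CPM; log2 fold change −0.13, adjusted p = 0.0454). It was lost without the second PBS, the third PBS or the second lactic acid library (0.0976, 0.126 and 0.142) and on log2(FPKM + 1) (0.0564). The GTPase GNL2 (39.1 ± 1.53 to 40.3 ± 3.38 CPM, 95% interval −0.091 to 0.17), the helicase DDX18 (101 ± 6.04 to 103 ± 1.40 CPM, 95% interval −0.072 to 0.13) and RRS1 (48.1 ± 2.20 to 49.1 ± 1.31 CPM, 95% interval −0.065 to 0.12), which in yeast helps load the particle of the smallest ribosomal RNA, were not called. Their log2 fold changes of 0.04, 0.027 and 0.029 were close to the median of all genes, 0.0024.

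Of the 5 nucleolar proteins with several roles, 3 fell, against 16.7% of all genes tested. NCL, nucleolin, stood at 654, 629 and 653 CPM with PBS and at 578, 561 and 582 CPM with lactic acid, a fall of 11.1% (log2 fold change −0.17 with SE 0.0293, adjusted p = 0.00088). MYBBP1A, a regulator of ribosomal DNA transcription, stood at 99.5, 111 and 109.7 CPM with PBS and at 82.0, 84.2 and 89.6 CPM with lactic acid, a fall of 20.0% (log2 fold change −0.32 with SE 0.0491, adjusted p = 0.000368). DDX21, a helicase linking RNA polymerase I with precursor processing, went from 254 ± 3.89 to 227 ± 6.22 CPM (log2 fold change −0.16, adjusted p = 0.00327). In each of them all lactic acid libraries lay below all PBS libraries.

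NPM1, nucleophosmin, had the highest level per length of the members and was not called. It stood at 1120.2, 1081 and 1065 CPM with PBS and at 1159, 1142 and 1119 CPM with lactic acid. The groups overlapped by a small margin (log2 fold change 0.066 with SE 0.0271, adjusted p = 0.0808, 95% interval 0.0065 to 0.13). It passed as a rise in DESeq2 (0.0388). The annotation names 45 pseudogenes of NPM1, against at most 5 for any other member, and how reads shared with them were counted is not given in the sources used here. LYAR, a nucleolar growth regulator, had the fewest counts of the members and was not called (11.3 ± 0.35 to 10.4 ± 1.34 CPM; log2 fold change −0.12, adjusted p = 0.4).

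Levels per length differed widely between members. In PBS they ran from 4.70 ± 0.415 FPKM for WDR12 to 667 ± 16.4 FPKM for NPM1, with a median of 24.5 FPKM. FBL followed at 234 ± 1.95 FPKM, NCL at 155 ± 3.73 FPKM, NOP56 at 123 ± 3.91 FPKM and NOP10 at 98.3 ± 0.717 FPKM. The order of NCL above NOP56 and NOP56 above NOP10 exceeded the spread of each. By FPKM, 29 of the 30 members that fell lay below PBS without overlap, with NOP2 the exception. FPKM and counts come from the same libraries, so this restates the falls. The share of all genes without overlap by FPKM was not examined.

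The members are scattered over 20 chromosomes, with 8 on chromosome 2 and 5 on chromosome 5. Exons of 18 members overlap an exon of another gene in the table, which can share reads where counting ignores strand. Of these 18, 12 fell, and of the other 28, 18 fell and 1 rose, against 16.7% of all genes tested that fell and 18.7% that rose. NOP2, LTV1, RRS1 and GRWD1 overlap a gene on their own strand, so their counts are less certain.

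Promoter sequences were searched for the site of MYC and for other motifs. The members were chosen as genes linked to MYC, so the share with that site is a description. RefSeq windows (GRCh38.p14) from 250 bases before the gene start given by RefSeq to 50 after it were matched by symbol for 37 members. For 36 of these, bases 21 to 40 after the start lay in an annotated transcript of the gene. NOP14 was the exception, and its window was kept. Some members had several windows, and a motif in any of them was counted. The canonical E-box CACGTG, the letters bound by MYC and MAX and by many related factors, reads the same on both strands. It was present in 17 of 37 members, 45.9%, against 12.5% of 10729 tested genes and 8.77% of all 27305 genes with a window. Of its 18 matches, 16 began within 100 bases of the RefSeq start. Where matches lie in the windows of other genes was not examined. The following windows are shown because they hold the match in genes that fell (FBL, MYBBP1A, WDR43), rose (NOP10) or were not called (PES1), or lack it in a gene that fell (DKC1). Each is written on the strand of the gene, and capitals mark the E-box.
FBL promoter, chr19:39846330-39846629, minus strand: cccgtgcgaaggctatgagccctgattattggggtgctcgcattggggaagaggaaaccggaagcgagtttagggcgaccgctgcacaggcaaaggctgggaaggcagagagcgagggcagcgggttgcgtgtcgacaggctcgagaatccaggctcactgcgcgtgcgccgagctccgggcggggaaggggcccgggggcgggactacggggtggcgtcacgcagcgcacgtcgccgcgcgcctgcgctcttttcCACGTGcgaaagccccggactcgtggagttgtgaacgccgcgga
MYBBP1A promoter, chr17:4555335-4555634, minus strand: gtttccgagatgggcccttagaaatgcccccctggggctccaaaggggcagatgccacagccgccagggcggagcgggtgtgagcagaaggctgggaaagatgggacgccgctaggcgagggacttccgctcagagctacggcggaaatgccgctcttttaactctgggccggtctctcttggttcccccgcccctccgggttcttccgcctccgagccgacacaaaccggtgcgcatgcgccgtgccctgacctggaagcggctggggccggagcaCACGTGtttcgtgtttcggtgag
WDR43 promoter, chr2:28894417-28894716, plus strand: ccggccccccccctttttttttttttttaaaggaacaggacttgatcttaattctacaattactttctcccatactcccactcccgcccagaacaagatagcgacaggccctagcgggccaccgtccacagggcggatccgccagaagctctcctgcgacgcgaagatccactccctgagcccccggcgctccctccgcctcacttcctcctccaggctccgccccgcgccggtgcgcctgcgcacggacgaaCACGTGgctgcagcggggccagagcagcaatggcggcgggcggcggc
NOP10 promoter, chr15:34343087-34343386, minus strand: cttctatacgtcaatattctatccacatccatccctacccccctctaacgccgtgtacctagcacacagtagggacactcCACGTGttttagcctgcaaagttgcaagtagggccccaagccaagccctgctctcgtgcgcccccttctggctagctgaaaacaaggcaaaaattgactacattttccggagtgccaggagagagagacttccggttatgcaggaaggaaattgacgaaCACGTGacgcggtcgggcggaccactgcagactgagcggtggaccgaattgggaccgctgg
PES1 promoter, chr22:30591861-30592160, minus strand: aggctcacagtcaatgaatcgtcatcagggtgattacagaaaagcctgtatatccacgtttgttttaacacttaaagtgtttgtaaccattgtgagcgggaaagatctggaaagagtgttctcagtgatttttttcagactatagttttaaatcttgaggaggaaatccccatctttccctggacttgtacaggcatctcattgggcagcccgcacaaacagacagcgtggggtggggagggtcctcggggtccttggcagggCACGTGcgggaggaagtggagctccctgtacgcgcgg
DKC1 promoter, chrX:154762614-154762913, plus strand: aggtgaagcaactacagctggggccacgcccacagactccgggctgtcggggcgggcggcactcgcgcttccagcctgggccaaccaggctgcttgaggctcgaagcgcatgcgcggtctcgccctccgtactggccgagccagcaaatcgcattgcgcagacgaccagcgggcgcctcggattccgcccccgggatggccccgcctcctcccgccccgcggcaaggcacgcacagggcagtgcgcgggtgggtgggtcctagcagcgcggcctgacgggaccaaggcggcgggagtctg

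Counting the RefSeq start as 0, the match begins at 6 in FBL, 27 in MYBBP1A, 3 in WDR43 and 13 in PES1. GENCODE extends PES1 to position 30607083 and MYBBP1A to 4555631, upstream of their RefSeq starts. The distances therefore hold for the RefSeq start alone. NOP10 holds 2 matches, at −170 and −11. Of the 17 members with the E-box, 8 fell, 1 rose and 8 were not called, with a median log2 fold change of −0.13. Of the 20 without it, 15 fell, 0 rose and 5 were not called, with a median of −0.20. Over all genes tested, 16.7% fell and 18.7% rose. The difference between members with and without the E-box was not tested.

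A related sequence, CACGCG on either strand, was found in 14 of 37 members (37.8%, against 22.1% of tested genes). Of these 14, 10 fell, and of the 23 without it, 13 fell. CCGGAAG on either strand, the core bound by ETS factors, was found in 15 (40.5%, against 21.4%). Of these 15, 10 fell, and of the 22 without it, 13 fell. Over all genes tested, 16.7% fell. The differences between members with and without each of these motifs were not tested either. Matches of different motifs among these 3 cannot share bases, given their letters. The windows of MYC, POLR1E, NOP58, NOLC1, RRP12, BOP1, RRP1B, RRS1 and DDX18 were not matched. A match is a description of the window and not of binding, which was not measured in these data.

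**Figure D4:**
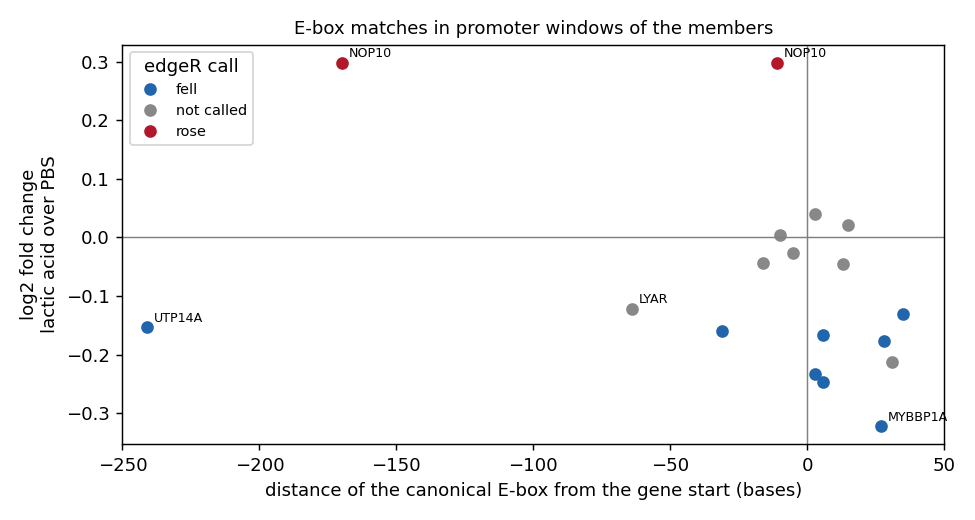
Each point is a canonical E-box in the promoter window of a member, placed by its distance in bases from the RefSeq start and by the log2 fold change of the gene, lactic acid over PBS; colours give the edgeR call. Most matches within the window lie less than 100 bases from the start, and genes with a match at the start include falls and genes not called.

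Further genes of the same steps came from lists that hold none of the members. Of 108 tested, 47 fell (43.5%, against 16.7% of all genes) and 8 rose (7.41%, against 18.7%), with a median log2 fold change of −0.12. For RNA polymerase I, 7 of 12 fell and 1 rose (median −0.19), and 4 fell when PBS library 3 or lactic acid library 1 was left out. TCOF1, the nucleolar protein treacle that works with UBTF, fell from 132 ± 6.93 to 99.2 ± 2.54 CPM (log2 fold change −0.41, adjusted p = 2.56e-05), and the subunit gene CD3EAP fell as well (log2 fold change −0.31, adjusted p = 0.000761). POLR1D, a subunit shared with RNA polymerase III, rose 1.15-fold (log2 fold change 0.20, adjusted p = 0.00346). In the snoRNP list 4 of 10 fell and 1 rose. RUVBL2 and RUVBL1, ATPases that assemble box C/D particles, fell (129 ± 5.13 to 96.8 ± 3.20 CPM and 89.6 ± 2.97 to 72.7 ± 2.04 CPM), and ZNHIT3, of the same assembly pathway, rose 1.15-fold.

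For the small subunit 20 of 41 fell and 3 rose, and for the large subunit 16 of 45 fell and 3 rose (medians −0.12 and −0.096). Over all genes tested, 16.7% fell and 18.7% rose. WDR3 (log2 fold change −0.32, adjusted p = 6.1e-05) and TBL3 (log2 fold change −0.35, adjusted p = 0.000476), of one processome subcomplex, fell, the latter without passing on log2(FPKM + 1) (0.164). RCL1, a processome protein, rose 1.26-fold and IMP3, which helps pair a guide RNA with the precursor, 1.18-fold, the latter without passing on log2(FPKM + 1) with no filter (0.0729). PELP1 (log2 fold change −0.25, adjusted p = 0.000462) and URB1 (log2 fold change −0.30, adjusted p = 0.000676), factors of large subunit maturation, fell. RSL24D1, whose yeast counterpart precedes a ribosomal protein on the particle, rose 1.16-fold, and RSL1D1 1.11-fold (adjusted p = 0.00516; 0.0931 on log2(FPKM + 1)). The lists were drawn up with earlier results of these data known.

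Of 16 genes of the RNA exosome and related decay enzymes, which trim ribosomal RNA, 7 fell (43.8%) and 0 rose. Of all genes tested, 16.7% fell and 18.7% rose. The falls include the core subunits EXOSC2 (log2 fold change −0.31, adjusted p = 5.43e-05) and EXOSC9 (log2 fold change −0.32, adjusted p = 0.000332). Of 22 genes of RNA polymerase III, which makes the smallest ribosomal RNA and transfer RNA, 6 fell (27.3%) and 1 rose (4.55%), and 3 fell on log2(FPKM + 1) with no filter. The share that fell compares with 16.7% of all genes tested and 22.3% of those averaging 20 CPM or more. For the share that rose these figures are 18.7% and 26.3%. POLR3G, a subunit typical of stem and tumour cells, showed the largest fall of this list, from 17.9 ± 1.32 to 11 ± 0.53 CPM (log2 fold change −0.70, adjusted p = 6.55e-05), and GTF3C4 also fell (log2 fold change −0.18, adjusted p = 0.00205). BDP1 just passed as higher (log2 fold change 0.12, adjusted p = 0.0488) and did so under 2 of 15 other settings.

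Targets of MYC outside ribosome assembly fell in 11 of 20 cases (55%) and rose in 0, with a median log2 fold change of −0.15. Of all genes tested 16.7% fell and 18.7% rose, and of those averaging 20 CPM or more 22.3% fell and 26.3% rose. RANBP1, a regulator of nuclear transport, fell from 112 ± 3.09 to 87.5 ± 4 CPM (log2 fold change −0.36, adjusted p = 5.5e-05), and PPAT, the first enzyme of purine synthesis, from 48.3 ± 2.16 to 39.3 ± 0.522 CPM (log2 fold change −0.30, adjusted p = 0.000225). Targets of p53, which is intact in A549 and can be stabilised when ribosome assembly is disturbed, rose in 10 of 20 cases (against 18.7% of all genes) and fell in 2. TP53INP1, a stress-induced cofactor of p53, rose 1.98-fold (log2 fold change 0.99, adjusted p = 3.41e-08) and CDKN1A, the cell cycle inhibitor p21, 1.41-fold from 151 ± 6.24 to 213 ± 4.42 CPM. GADD45A fell (log2 fold change −0.46, adjusted p = 0.000762). TP53I3 fell by a small amount (log2 fold change −0.13, adjusted p = 0.0324), a call held in 1 of 6 fits with a library left out, that without the first PBS library. Whether these genes and the ribosome assembly genes are linked was not tested.

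**Figure D5:**
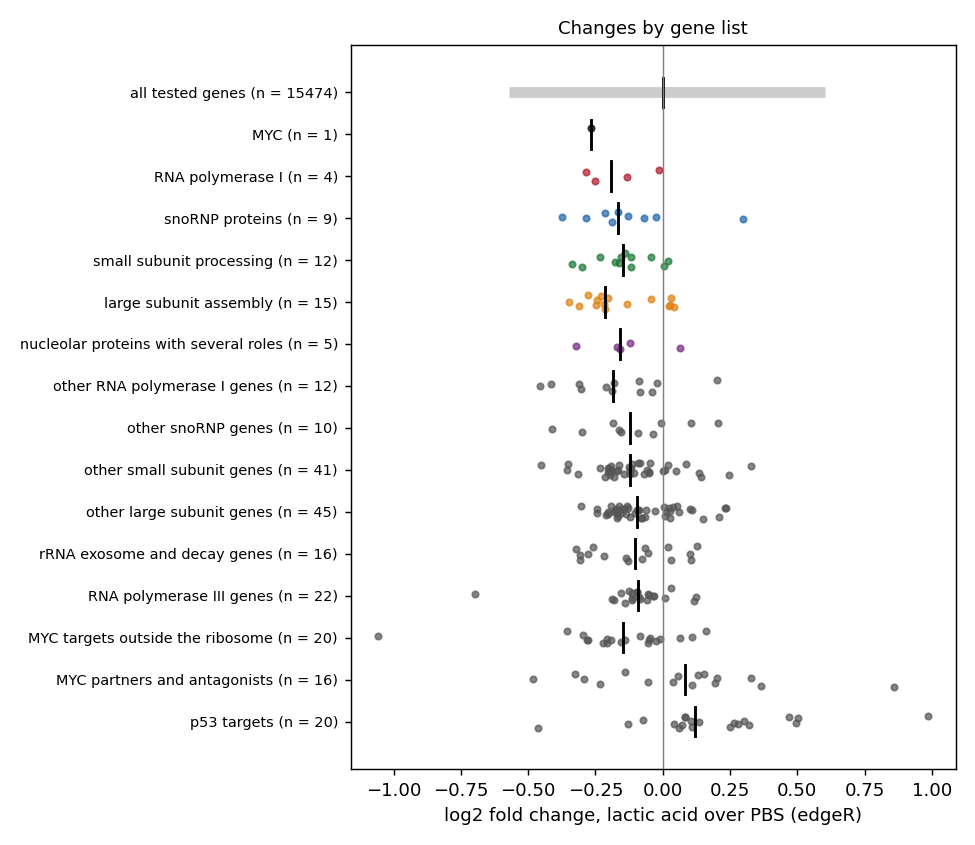
Points are genes, placed by log2 fold change, lactic acid over PBS, and by list; black bars are medians, and the grey band spans the 5th to 95th percentile of all 15474 tested genes. Medians of all ribosome assembly lists lie between −0.22 and −0.096, left of the median of all genes, while those of MYC partners and p53 targets lie right of it.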

How the data were processed

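RNA was extracted with TRIzol, polyadenylated RNA was captured on oligo(dT) beads and a NovaSeq X Plus read both ends over 150 bp, per the labels' protocols. The authors deposited counts, as whole numbers, and FPKM values for every gene in all 6 libraries. HISAT2, StringTie, DESeq2 and the build GRCh38 are listed without roles, per the submitters' processing notes. The handling of strand and of shared reads, and the annotation release, were not given in the sources used here. The tables name the control columns NS, where the labels speak of WT columns, and were matched by the library names in the labels.

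Members were found by symbol. All 19974 Ensembl identifiers matched GENCODE release 29 (GRCh38), which gave coordinates. Deposited counts were tested with edgeR 4.0.16 (quasi-likelihood, two-sided, R 4.3.3), using TMM factors and group as the only term. filterByExpr (minimum count 10, minimum total 15) left 15474 genes, and Benjamini-Hochberg adjustment ran over all of them. CPM refer to effective library sizes and are given as mean ± SD (n = 3). Alternatives were RLE factors, library totals, DESeq2 1.42.0, other filters, limma 3.58.1 on log2(FPKM + 1) and log2(FPKM + 0.1), the replicate number as a block and each library left out. The test was checked on simulated counts. Replicates differed by more than counting noise (chi-square 6.27 to 9.11 per degree of freedom). Members and lists were chosen with earlier results of these data known. All members were named, all genes of the list of MYC partners, and up to 2 called genes in each direction from other lists, taken by p among genes averaging 1 CPM or more. A list of 16 snoRNA host genes found 0 in the table and was not analysed here.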

Additional observations from a re-analysis of the deposited data

How the results depend on the processing

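Of the 30 members that fell, 23 kept that call under each of the 15 other settings, as did the 1 that rose, NOP10, and the others are named beside their values. The members that fell numbered 25 to 30 over all settings and 25 to 30 with a library left out. Those that rose were 2 with DESeq2 and 2 with the replicate block, NPM1 being the second (1 among the nucleolar proteins with several roles under each). Small subunit falls were 5 to 9 with a library left out. Over all genes, 1803 rose on log2(FPKM + 1), 1798 on log2(FPKM + 0.1) and 1618 on log2(FPKM + 1) with no filter, against 2892. The other genes of the same steps that rose were 5, 5 and 4 under those settings, against 8. With the replicate block 29 members fell, NOP2 having an adjusted p of 0.0502 and NPM1, as a rise, 0.0411, and MXD3 passed as a fall (log2 fold change −0.34, adjusted p = 0.00831). Over all genes tested, deviations of same-numbered libraries of the groups correlated at 0.0318, −0.0363 and 0.0648. The labels do not say whether the numbers pair the cultures. These values cannot decide it, since cultures run in pairs need not deviate together. Signs changed only in members that were not called and lay near 0. The median of all genes itself moved by −0.022 with library totals, −0.035 and −0.034 on log2(FPKM + 1) with and without a filter and −0.037 on log2(FPKM + 0.1), about as far as these members did under those settings. UTP20 had −5.5e-05 with RLE factors, −0.018 with library totals, −0.0021 with no filter, −0.0028 with 50 counts in 3 libraries, −0.031 on log2(FPKM + 1) with and without a filter, −0.034 on log2(FPKM + 0.1), and −0.016 to 0.030 with a library left out. NOP14 had −0.0011 with library totals. On log2(FPKM + 1), with and without a filter, and on log2(FPKM + 0.1), NOP14 had −0.0095 and −0.010, WDR12 −0.0085 and −0.0097, RRS1 −0.0072 and −0.0074, DDX18 −0.0080 and −0.0083, and GNL2 −0.0040 and −0.0044. With a library left out POLR1A ran from −0.057 to 0.028, RRP9 from −0.12 to 0.018, PES1 from −0.083 to 0.0094, WDR12 from −0.038 to 0.074, DDX18 from −0.027 to 0.050 and GNL2 from −0.0039 to 0.11. The cause of the shifts with a library left out was not tested. At 3 libraries a group, the smallest fall called among the members was 7.80%.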
